A study of Danio rerio with 12 samples.

Results

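The effect of losing tet2 and tet3 was compared between hearts at 48 hours post fertilisation (hpf) and whole embryos at 25 hpf, by subtracting the mutant effect in embryos from that in hearts gene by gene. The comparison used 10 of the 12 libraries of the study, chosen by the group that the labels give them. They are 2 libraries of double mutant (DM) hearts, 2 of sibling hearts, 3 of DM embryos and 3 of sibling embryos, all from zebrafish (Danio rerio) of strain background AB. DM animals carried inactivating mutations of tet2 and tet3, while siblings pooled wild type fish with fish heterozygous at 1 or both loci. The remaining 2 libraries are wild type (WT) hearts at 48 hpf, and their values are given beside the others without entering the test. Per the labels' protocols, WT fish descended from both AB and TU parents. Hearts were cut out by hand under a microscope, and their RNA was amplified as cDNA ahead of library preparation, a step that embryo RNA did not go through. The difference therefore holds the tissue, the stage and the amplification at once, and these cannot be told apart. The labels do not tell whether replicates stem from different clutches, so p-values describe the spread between these libraries and part of it may be technical.

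TET enzymes oxidise 5-methylcytosine in DNA, the first step of active demethylation, and fish, mice and humans have the paralogs Tet1, Tet2 and Tet3. The zebrafish heart lies beside the foregut and the pharynx, whose mesenchyme is patterned by forkhead and homeobox factors of the Fox, Barx and Nkx families, while Hox genes give cells along the body axis their position. The secreted signals met below are activin, a TGF-beta family dimer, the chemokine Cxcl12, which guides migrating cells, and retinoic acid, which activates Hox genes along the body axis.

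Heart libraries held 3289161 to 5963478 counts and embryo libraries 8341467 to 16700992, and levels are given as CPM, counts scaled to the total of their library. Where a gene had a count of 0, its level could still be as high as 0.503 to 0.912 CPM in a heart library and 0.180 to 0.360 CPM in an embryo library (3 counts, counting error only). The 7 cardiomyocyte markers took 3.47% to 4.63% of counts in DM hearts, 1.26% to 3.02% in sibling hearts and 2.83% to 4.33% in WT hearts, against 0.0389% to 0.0450% in embryos, and none was at 0 in any library. Other tissues were present in the dissected hearts in uneven amounts. The 6 lens markers took 0.0507% of counts in DM heart 1 and 0.159% in sibling heart 1, but 0.00250% or less in each of the other 4 hearts. The 5 skeletal muscle markers took 0.167% to 0.782% in DM hearts, 0.0613% to 0.0720% in sibling hearts and 0.0937% to 0.140% in WT hearts. Most of the sum in DM heart 3 and sibling heart 3 was acta1b, with 1597 and 677 CPM. In embryos acta1b gave 80.4 to 318 CPM, so the sum does not measure skeletal muscle alone. Each of the other markers was lower in DM heart 3 than in sibling heart 1. In such bulk libraries, fewer cells of a type and less RNA per cell cannot be told apart. The mutated genes themselves stayed transcribed in both tissues, with log2 fold changes (DM over sibling) for tet2 of -0.49 in hearts and 0.17 in embryos and for tet3 of 0.25 in hearts and -0.36 in embryos, all of them within the spread (edgeR adjusted p of at least 0.728).

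With hearts and embryos fitted together in edgeR, most effects called as different between the tissues were in hearts, and they were losses of expression. The edgeR quasi-likelihood test over 19689 genes called 9 of them (0.0457%) for the difference of DM effects at a Benjamini-Hochberg adjusted p under 0.05, with 1161 at an unadjusted p under 0.05. All 9 had lower levels in DM hearts than in sibling hearts and no called change in embryos. They are foxf1, foxf2a, barx1, nkx3.3, hoxb8a, hoxc1a, inhbaa, cxcl12b and AEBP1 (1 of many). In hearts the same fit called 29 genes (0.147%), 28 of them lower and 1 higher in DM, and in embryos it called 0 genes (0%), with 326 at an unadjusted p under 0.05, 7 called by DESeq2 and 0 by limma-voom. No gene was called in embryos only, and none was called alike in both tissues.

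A second fit took replicate numbers within each tissue as blocks, since the deviations of equally numbered libraries correlated above the set minimum, although DM embryo 3 correlated more with sibling embryo 2 (0.446) than with sibling embryo 3 (0.248). It called 38 genes with a more negative effect in hearts (0.193%) and 10 with a more positive one (0.0508%). In hearts it called 161 genes lower (0.818%) and 74 higher (0.376%) in DM, and in embryos 6 lower (0.0305%) and 0 higher, with 2161 embryo genes at an unadjusted p under 0.05. By this fit 46 genes were called in hearts only, 38 lower and 8 higher in DM, and these include all 9 named above. Only 1 gene, the clone-named CR847505.1, was called in embryos only, and again 0 were called alike. DESeq2 without the block called 90 genes (0.457%) for the difference, 78 negative and 12 positive, and 85 of them as hearts only. The genes called in hearts only were not silent in embryos, since 45 of the 46 had a mean of at least 1 CPM there and 37 a mean of at least 5 CPM. For 35 of the 46 the fitted embryo log2 fold change lay within 0.5 of 0. That is no trait of these genes, since over all tested genes the quartiles of the embryo fold change were -0.32 and 0.28. The 46 were also chosen for having no call in embryos.

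**Figure D1:**
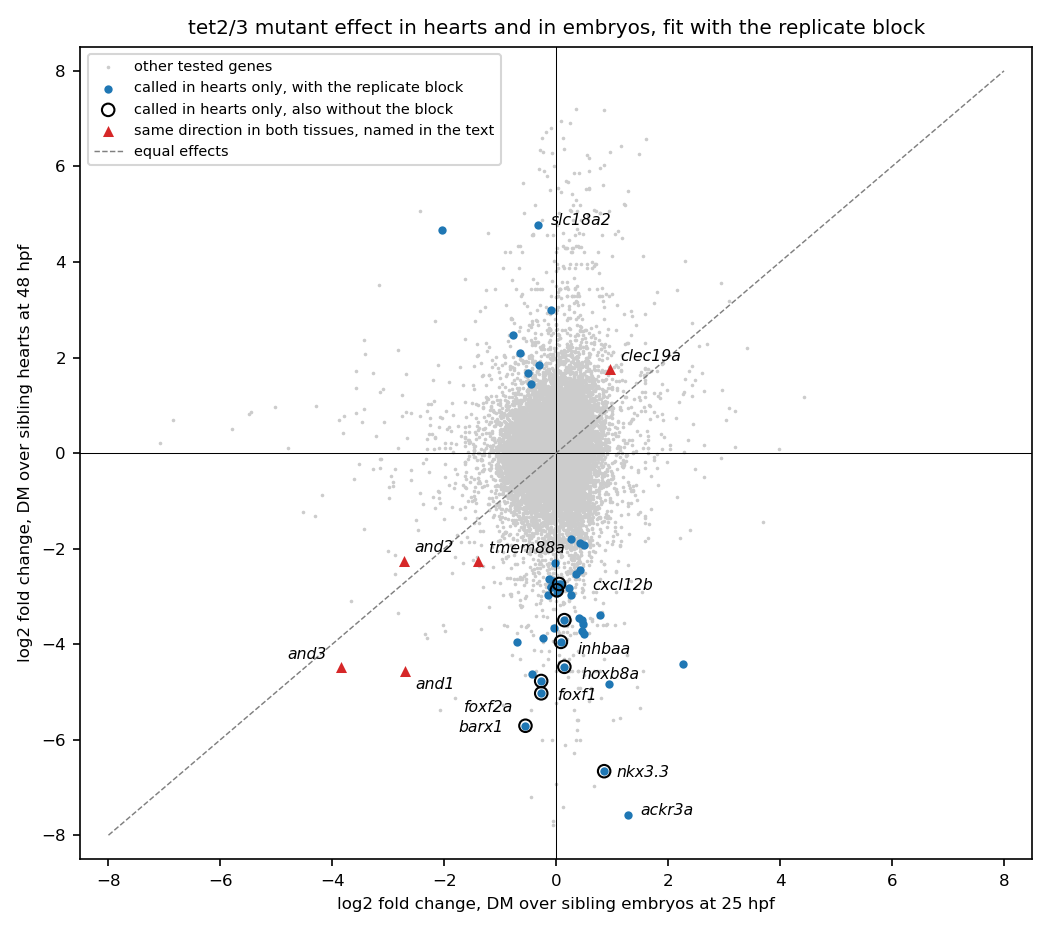
Log2 fold change (DM over sibling) in hearts at 48 hpf on the vertical axis against that in embryos at 25 hpf on the horizontal axis, for each of the 19689 tested genes in the fit with the replicate block. Blue points are the 46 genes called in hearts only, and black rings mark the 9 also called without the block. Red triangles are tmem88a, and1, and2, and3 and clec19a, picked from the many genes whose effect had the same sign in both tissues. The blue points lie close to the vertical axis, 38 of them below 0, and the triangles lie nearer to the dashed line of equal effects. Both sets were chosen by these effects, so their positions follow in part from that choice.

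How many genes passed depended on the libraries and on the test. The count of 9 became 0 when DM embryo 2, DM embryo 3 or any of the 3 sibling embryos was left out (706 to 1337 genes at an unadjusted p under 0.05), and 6 without DM embryo 1. It became 4 without sibling heart 1, 41 without sibling heart 3, 16 without DM heart 1 and 15 without DM heart 3. The 9 genes kept a negative difference in each of these fits and in all 24 alternatives run, but they did not all stay called. Without DM heart 1, DM heart 3 or sibling heart 1, some of the 9 were no longer called and other genes were. Those fits leave 1 library in a group, so their calls are weak. In hearts fitted alone, without the embryo libraries, edgeR called 0 genes with the block (836 at an unadjusted p under 0.05) or without it (551). The calls in hearts therefore rest on a spread estimated over both tissues. In embryos fitted alone with the block, edgeR called 1674 genes lower (9.39%) and 779 higher (4.37%) in DM. Limma-voom with the block, added after the data were seen, called 103 genes in hearts and 1627 in embryos. Its called differences were 33 negative and 26 positive. Which tissue had more calls thus depended on the fit.

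Of the 9 genes, foxf1, foxf2a, barx1 and nkx3.3 encode forkhead and homeobox transcription factors, and each was counted in embryos of both genotypes too. The forkhead gene foxf1 (chromosome 18, 30868983 to 30872111, GRCz10), which marks lateral plate mesoderm around the gut, was counted at 2.21 and 0.942 CPM in DM hearts, against 42.3 and 40.8 CPM in sibling hearts and 19.1 and 5.82 CPM in WT hearts. Its embryo levels were 5.22, 4.32 and 3.64 CPM in DM and 4.49, 5.40 and 6.98 CPM in siblings. Both DM hearts thus lay below every other heart, while the embryo groups overlapped. The log2 fold change was -4.76 (SE 0.45) in hearts and -0.29 (SE 0.31) in embryos, and the difference was -4.47 (SE 0.54, 95% interval -5.64 to -3.30, edgeR adjusted p = 0.0156).

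Its relative foxf2a (chromosome 2, 840714 to 844060) stood at 2.02 and 2.59 CPM in DM hearts, against 126 and 35.3 CPM in sibling hearts and 42.9 and 3.69 CPM in WT hearts. DM embryos held 5.14, 4.56 and 3.54 CPM and sibling embryos 5.63, 6.21 and 4.73 CPM. One WT heart was close to the DM level and the other close to the lower sibling. The difference of effects was -4.88 (SE 0.71, edgeR adjusted p = 0.0372).

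For barx1 (chromosome 11, 27295919 to 27298545), a homeobox gene needed for stomach mesenchyme in mice and for jaw and arch development in zebrafish, DM hearts gave 2.39 and 0.471 CPM, against 81.2 and 59.6 CPM in sibling hearts. The WT hearts gave 75.3 and 0.388 CPM, so that WT heart 3 lay below both DM hearts. In embryos the levels were 3.38, 3.36 and 3.86 CPM in DM and 4.49, 5.18 and 6.75 CPM in siblings, a separation without overlap that was small beside that in hearts. The effect was -5.63 in hearts and -0.56 in embryos on the log2 scale, and the difference was -5.07 (SE 0.62, 95% interval -6.42 to -3.72, edgeR adjusted p = 0.0156).

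The NK family homeobox gene nkx3.3 (chromosome 13, 40271627 to 40275980) was nearly uncounted in DM hearts, with 0.368 and 0 CPM, which are 2 counts in all. Sibling hearts held 26.8 and 12.5 CPM, or 144 counts, and WT hearts 10.2 and 3.88 CPM. Pooled over libraries, the sibling level was 89.8 times the DM level (95% counting interval 24.4 to 748). In embryos the levels were 1.29, 2.52 and 1.18 CPM in DM and 0.719, 1.18 and 0.901 CPM in siblings. The fitted difference was -7.42 (SE 1.03, edgeR adjusted p = 0.0279), and it was -11.22 without DM heart 1, when the remaining DM heart had 0 counts, so neither value is a bound.

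**Figure D2:**
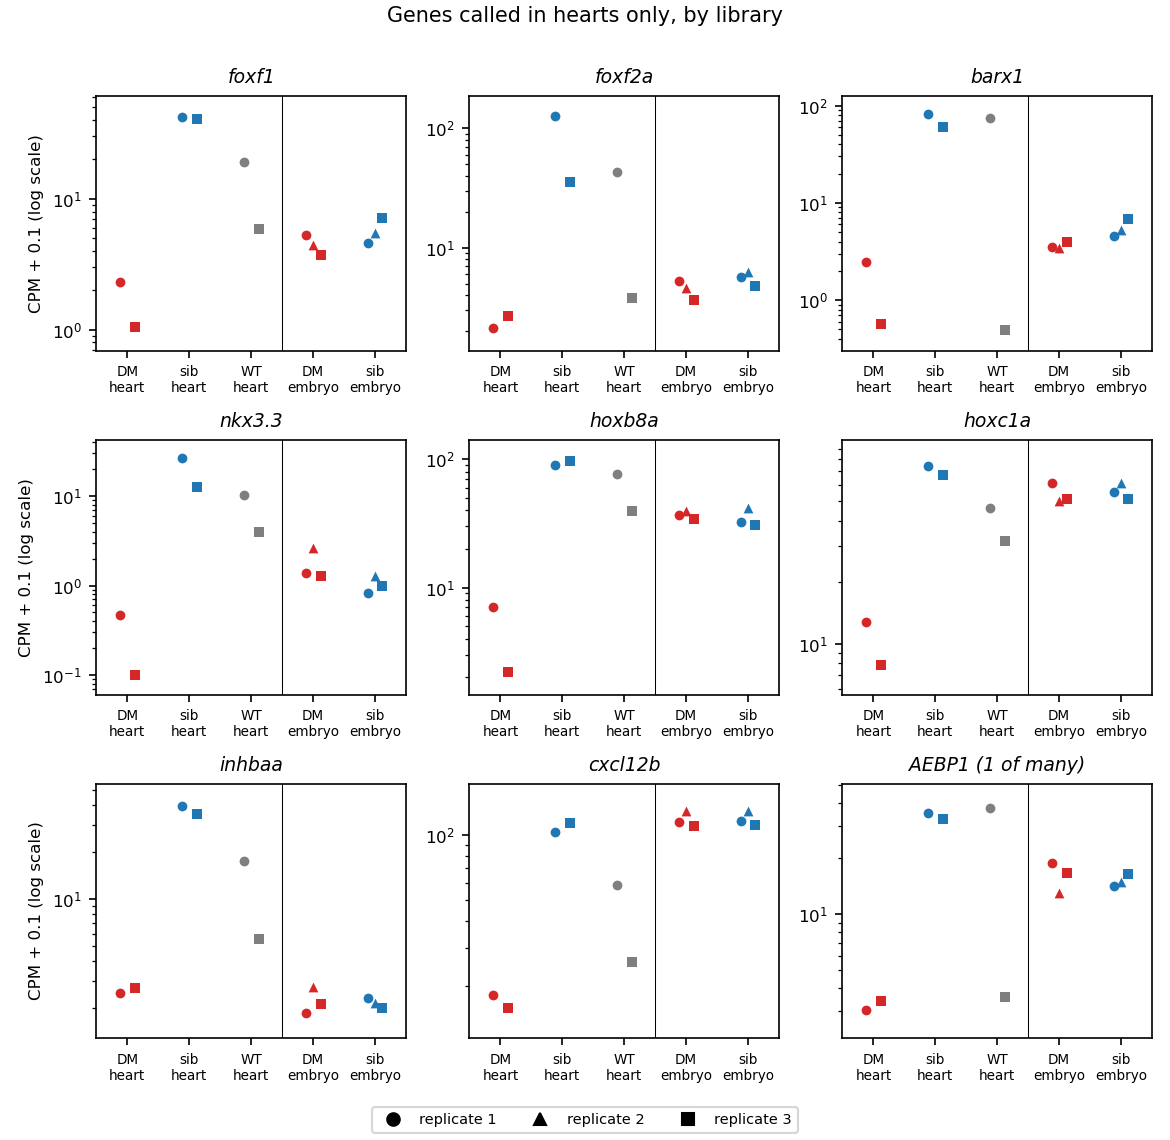
Level in each library, as CPM + 0.1 on a log scale, of the 9 genes called in hearts only by the fit without the block. Each panel is 1 gene and each point 1 library, with DM, sibling and WT hearts left of the line and DM and sibling embryos right of it. In every panel both DM hearts lie below both sibling hearts and the embryo groups lie close together. WT hearts mostly fall between, except that WT heart 3 lies below both DM hearts for barx1 and WT heart 1 above both sibling hearts for AEBP1 (1 of many).

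The Hox genes among the 9 were hoxb8a and hoxc1a. The central Hox gene hoxb8a (chromosome 3, 23557361 to 23559933) was counted at 6.99 and 2.12 CPM in DM hearts, against 89.4 and 97.3 CPM in sibling hearts and 76.1 and 39.0 CPM in WT hearts. It was plentiful in embryos of both genotypes, with 36.7, 39.1 and 33.98 CPM in DM and 32.0, 41.8 and 30.4 CPM in siblings. DM hearts were separate from both other heart groups, and the embryo groups overlapped. The effects were -4.42 in hearts and 0.12 in embryos, with a difference of -4.55 (SE 0.55, 95% interval -5.75 to -3.34, edgeR adjusted p = 0.0156).

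An anterior member, hoxc1a (chromosome 23, 36079301 to 36092185), gave 12.7 and 7.77 CPM in DM hearts, against 74.2 and 67.0 CPM in sibling hearts and 45.9 and 31.8 CPM in WT hearts. Its embryo levels were 60.8, 50.1 and 50.9 CPM in DM and 55.2, 61.0 and 51.1 CPM in siblings. The log2 fold change in embryos was 0.00 (SE 0.24), and the difference was -2.86 (SE 0.39, edgeR adjusted p = 0.0279). As with hoxb8a, all DM hearts lay below all other hearts. The paralog hoxb8b gave 0.552 and 0.471 CPM in DM hearts, against 5.47 and 5.58 CPM in sibling hearts and 4.36 and 2.33 CPM in WT hearts. Its difference was called by edgeR with the block but not without it (adjusted p = 0.0412 and 0.142), and by DESeq2 without the block (adjusted p = 0.00962).

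Across the family, 47 Hox genes were tested. With the block their median log2 fold change was -1.32 in hearts and 0.30 in embryos, with a median difference of -1.48, beside medians over all tested genes of 0.01 in hearts, 0.01 in embryos and 0.07 for the difference. The blocked fit called 7 of the 47 lower in hearts (hoxc1a, hoxb8a, hoxa3a, hoxb4a, hoxb8b, hoxb6a and hoxc8a) and 0 higher. Over all tested genes it called 0.818% lower and 0.376% higher. For 3 of the 47 it called a negative difference, beside 0.193% of all tested genes. The heart fold change was negative for 40 of the 47 and the difference for 42, while the embryo fold change was positive for 39. The negative heart signs include hoxc11b, which had 0 counts in all DM and sibling hearts, so its sign there means nothing. Others were near the floor in hearts. In sibling heart 3, hoxa11a, hoxa13a, hoxc12a, hoxc13a, hoxd11a and hoxd13a had 0 counts, so sign counts and heart medians rest in part on such genes. Over all tested genes 49.0% had a negative heart fold change, 46.4% a negative difference and 49.3% a negative embryo fold change. For 18 of the 47 both DM hearts lay below both sibling hearts, beside 14.6% of all tested genes, and for 13 below both WT hearts, beside 8.5% of all tested genes. The heart medians were -1.32 in the pair of libraries numbered 1 and -0.58 in the pair numbered 3, and the embryo medians were 0.14, 0.11 and 0.26 in the pairs numbered 1 to 3. For hoxa3a the DM hearts (16.4 and 13.7 CPM) lay below the sibling hearts (66.9 and 46.2 CPM) but beside the WT hearts (16.4 and 20.4 CPM). Likewise hoxb4a gave 1.103 and 1.177 CPM in DM hearts, against 10.3 and 7.14 CPM in sibling hearts and 1.51 and 1.55 CPM in WT hearts.

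The last 3 of the 9 were inhbaa, cxcl12b and AEBP1 (1 of many). The gene for the activin subunit beta A, inhbaa (chromosome 24, 3191762 to 3204082), stood at 2.39 and 2.59 CPM in DM hearts, against 39.2 and 34.8 CPM in sibling hearts and 17.4 and 5.43 CPM in WT hearts. Embryos of both genotypes were at the level of DM hearts, with 1.77, 2.64 and 2.04 CPM in DM and 2.22, 2.07 and 1.91 CPM in siblings. The effect was -3.95 in hearts and 0.10 in embryos (difference -4.05, SE 0.52, 95% interval -5.18 to -2.92, edgeR adjusted p = 0.0203). Of the 42 tested members of the activin, TGF-beta and BMP list, 2 were called lower in hearts with the block (inhbaa and the BMP modulator bmper), beside 0.818% of all tested genes. The BMP antagonist gene nog1 was the 1 member called higher, beside 0.376% of all tested genes, and the list median was -0.09. Outside that list, BMP10 (1 of many), named after a BMP ligand of the heart and picked after its values were seen, gave 0.736 and 0.471 CPM in DM hearts, against 16.1 and 37.1 CPM in sibling hearts and 66.1 and 39.6 CPM in WT hearts. Both DM hearts lay below all other hearts, and each embryo library held 0 or 1 count of it. Its log2 fold change in hearts was -5.50 (SE 0.72, edgeR adjusted p = 0.00897). The difference was called by DESeq2 (adjusted p = 0.00857) but not by edgeR (adjusted p = 0.305 without and 0.137 with the block). Within the list, the gene bmp10 was not lower in DM hearts. It gave 13.98 and 15.3 CPM there, against 3.65 and 12.9 CPM in sibling hearts and 26.0 and 11.1 CPM in WT hearts. Its blocked log2 fold change in hearts was 0.92 and was not called (edgeR adjusted p = 0.406).

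The chemokine gene cxcl12b (chromosome 22, 27067102 to 27083041) gave 18.02 and 15.8 CPM in DM hearts, against 103 and 113 CPM in sibling hearts and 58.5 and 25.8 CPM in WT hearts. In embryos it was equal between the genotypes, with 114, 128 and 110 CPM in DM and 115, 129 and 111 CPM in siblings. The difference was -2.80 (SE 0.38, 95% interval -3.62 to -1.97, edgeR adjusted p = 0.0279). The gene ackr3a, whose product is a scavenging receptor for Cxcl12, had 0 counts in both DM hearts, against 4.56 and 0.670 CPM in sibling hearts and 0.838 and 0.194 CPM in WT hearts, which is at least 7.48-fold lower when DM is set at 3 counts over the group. In embryos it went the other way, with 9.49, 14.9 and 16.1 CPM in DM and 4.73, 6.66 and 5.63 CPM in siblings. Its difference was called by edgeR with the block but not without it (adjusted p = 0.0410 and 0.189), and by DESeq2 without the block (adjusted p = 0.00431). Most of the sibling counts came from sibling heart 1.

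AEBP1 (1 of many) (ENSDARG00000006901, chromosome 8, 44765667 to 44806787) is named after a collagen-binding matrix protein of mammals. It was counted at 2.94 and 3.297 CPM in DM hearts, against 34.96 and 32.6 CPM in sibling hearts and 37.1 and 3.49 CPM in WT hearts. Embryo levels were 18.8, 12.9 and 16.6 CPM in DM and 14.1, 14.8 and 16.4 CPM in siblings, and the difference was -3.64 (SE 0.43, edgeR adjusted p = 0.0156). For AEBP1 (1 of many) and foxf2a, WT heart 3 lay just above the DM hearts, and for barx1 it lay below them.

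The WT hearts bear on each of these calls. With WT hearts in place of sibling hearts, 0 of the 9 genes were called, although all 9 kept their sign. The single gene called in that comparison was rspo2 (chromosome 16, 38504338 to 38604289), which encodes an R-spondin, a secreted enhancer of Wnt signalling. It gave 10.7 and 7.30 CPM in DM hearts, against 35.9 and 121 CPM in sibling hearts and 96.4 and 80.0 CPM in WT hearts, while embryos held 16.4, 17.98 and 18.8 CPM in DM and 13.8, 14.7 and 15.3 CPM in siblings. DM hearts were the lowest of all hearts. Against siblings the difference was -3.57 (SE 0.64, edgeR adjusted p = 0.105), with adjusted p from 5.88e-05 to 0.398 over the alternatives. Of the 38 genes called lower in DM hearts only with the block, WT heart 1 lay nearer to the sibling mean than to the DM mean for 24, and WT heart 3 for 19. Of the 8 called higher, WT heart 1 lay nearer to the sibling mean for 2 and WT heart 3 for 6.

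The block added further genes that edgeR called lower in DM hearts and did not call in embryos. The retinol dehydrogenase gene rdh10a, which serves the first step of retinoic acid synthesis, had 12.1 and 11.8 CPM in DM hearts, against 99.1 and 82.1 CPM in sibling hearts and 79.0 and 16.1 CPM in WT hearts, with a blocked difference of -2.83 (SE 0.33). Without the block its adjusted p was 0.0719, and over the alternatives it ran from 5.73e-10 to 0.497. It was the single member of the 26 retinoic acid genes tested that was called in hearts, beside 0.818% of all tested genes called lower with the block.

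The endoderm factor gene foxa3 gave 5.70 and 7.77 CPM in DM hearts, against 53.5 and 39.7 CPM in sibling hearts and 22.5 and 23.3 CPM in WT hearts, with a blocked difference of -2.88 (SE 0.40). Both DM hearts lay below all other hearts. The basonuclin gene BNC1 gave 1.84 and 4.003 CPM in DM hearts, against 49.3 and 36.2 CPM in sibling hearts and 23.5 and 14.4 CPM in WT hearts. It differed from foxa3 in embryos, where DM held 34.9, 23.9 and 26.8 CPM and siblings 54.7, 38.3 and 51.8 CPM, without overlap. Limma-voom with the block, added after the data were seen, called BNC1 lower in both tissues and called its difference too. Further blocked calls in the same direction were the neuregulin receptor gene erbb3a (difference -2.28), the junction gene jam2b (-3.24), the matrix gene mxra5a (-3.96), the transcriptional repressor gene prdm1a (-2.71), the kindlin gene fermt1 (-2.87), the hexokinase-like gene hkdc1 (-4.18) and ENSDARG00000038709, listed as MYADM (1 of many) (-4.19). The proglucagon gene gcgb was called as well, but with 3 counts in DM hearts and 44 in sibling hearts. Its levels were 12.2 CPM in sibling heart 1 and 0.893 in sibling heart 3, and 38.1 and 0 CPM in WT hearts. In embryos it went the other way without overlap, with 3.78, 2.88 and 6.43 CPM in DM and 0.419, 0.666 and 2.14 CPM in siblings. Its blocked log2 fold changes were -4.41 in hearts and 2.27 in embryos, so part of its difference came from embryos.

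Genes listed for neighbouring tissues moved with these genes in part. In lists written after these calls had been seen, the 19 foregut mesenchyme genes summed to 492 and 696 CPM in DM hearts, 752 and 844 CPM in sibling hearts and 1211 and 592 CPM in WT hearts. Their median was -1.55 in hearts and -0.16 in embryos, with 5 called lower in hearts with the block (foxf1, foxf2a, barx1, nkx3.3 and hlx1). The 28 genes of foregut endoderm, liver and pancreas summed to 1103 and 1371 CPM in DM hearts, 2288 and 1799 CPM in sibling hearts and 2116 and 1650 CPM in WT hearts. Both sums rest largely on a few abundant members, so they do not measure foregut tissue. In the endoderm list foxp4 gave 399 and 612 CPM in DM hearts and 1153 and 920 CPM in sibling hearts. There gata6 gave 305 and 502 CPM in DM hearts and 338 and 474 CPM in sibling hearts. In the mesenchyme list bmp4 was the most abundant member, with 199 and 264 CPM in DM hearts and 144 and 366 CPM in sibling hearts. Their median was -1.54 in hearts and -0.22 in embryos, with 6 called lower (foxa3, hnf1ba, cldnc, mnx1, gcga and gcgb). Over all tested genes the block called 0.818% lower and 0.376% higher in hearts. Both lists hold called genes, so their medians and counts are a description of these libraries. The 4 epicardial markers took 0.000938% to 0.00205% of counts in DM hearts, 0.00400% to 0.00626% in sibling hearts and 0.00285% to 0.00646% in WT hearts, with none at 0. In the hearts numbered 3 most of the sum was aldh1a2, with 16.2 CPM in DM and 32.4 CPM in sibling. There tcf21 was lower in DM too (0.942 and 4.46 CPM), but wt1a (1.88 and 1.79 CPM) and tbx18 (1.41 and 1.34 CPM) were not. The wider epicardium and proepicardium list (16 tested) had a heart median of -0.12 with the block, with 9 members negative, 1 called lower (tcf21) and 2 called higher (anxa2a and sema3fb). The part that the cut around each heart had in these values was not tested.

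In DM hearts only, the blocked fit called 8 genes higher. They include the actin genes acta1a and ACTC1 (1 of many), the Z-disc gene myoz1a and the calcium pump gene atp2a1l. Also among them was slc18a2 (chromosome 17, 23762300 to 23791308), the gene of the vesicular monoamine transporter, with 21.5 and 45.4 CPM in DM hearts, against 1.22 and 1.12 CPM in sibling hearts and 0.335 and 2.13 CPM in WT hearts. Embryos held 0.804, 0.599 and 1.39 CPM in DM and 1.198, 0.888 and 1.46 CPM in siblings. Both DM hearts stood far above every other library. The difference was 5.06 (SE 0.77, edgeR adjusted p = 0.0513) without the block and 5.09 (SE 0.58, edgeR adjusted p = 0.0217) with it, and adjusted p ran from 4.64e-06 to 0.398 over the alternatives. It was the single gene called higher in hearts without the block (log2 fold change 4.80, edgeR adjusted p = 0.00897).

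The Z-disc gene myoz1a gave 64.0 and 151 CPM in DM hearts, against 6.38 and 21.2 CPM in sibling hearts and 14.3 and 19.0 CPM in WT hearts. Its blocked difference was 3.09 (SE 0.37, edgeR adjusted p = 0.0258), with adjusted p from 1.17e-07 to 0.950 over the alternatives. DM hearts lay above all other hearts. The actin gene ENSDARG00000057911, listed as ACTC1 (1 of many), gave 373 and 665 CPM in DM hearts, against 64.2 and 190 CPM in sibling hearts and 284 and 215 CPM in WT hearts, and counts of near-identical actins are uncertain. For acta1a, klhl31, klhl43 and atp1a2a the blocked differences were 2.17, 1.90, 3.26 and 2.14, and WT hearts overlapped with DM hearts for acta1a and klhl31. For klhl43 and atp1a2a both WT hearts lay between the DM and sibling hearts. DM, sibling and WT hearts gave 65.3 and 61.0, 6.38 and 16.5, and 55.7 and 27.2 CPM for klhl43. For atp1a2a they gave 40.8 and 36.7, 11.6 and 9.37, and 28.8 and 13.4 CPM. Without DM heart 3 the difference of acta1a, fitted without the block, was 1.12, and without sibling embryo 1 it was 1.51 for acta1a, 1.33 for atp1a2a and 0.995 for klhl31. In embryos, acta1a gave 134, 48.3 and 45.3 CPM in DM and 220.1, 64.0 and 66.2 CPM in siblings, ACTC1 (1 of many) 33.1, 14.9 and 12.2 CPM in DM and 54.7, 22.1 and 21.6 CPM in siblings, and klhl43 14.4, 2.398 and 4.18 CPM in DM and 19.9, 5.48 and 8.33 CPM in siblings. The embryo groups overlapped for each, with DM the lower in all 3 pairs. Limma-voom with the block, added after the data were seen, put these 3 genes among 7 called in opposite directions. Of the 7, 5 were higher and 2 lower in DM hearts, and these 3 genes were higher in DM hearts and lower in DM embryos. By contrast, edgeR with the block called 0 genes in opposite directions. DESeq2 with the block called 1, zgc:110712, which was lower in DM hearts and higher in DM embryos. In embryos fitted alone with the block, the edgeR adjusted p was 0.0390 for acta1a, 0.0085 for ACTC1 (1 of many) and 0.0154 for klhl43. The calcium pump gene atp2a1l rested on the hearts numbered 1, with 185 and 1.88 CPM in DM hearts, against 6.99 and 0 CPM in sibling hearts and 16.3 and 1.55 CPM in WT hearts. The skeletal muscle markers given above were highest in the same DM heart 1, and their part in these values was not tested.

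**Figure D3:**
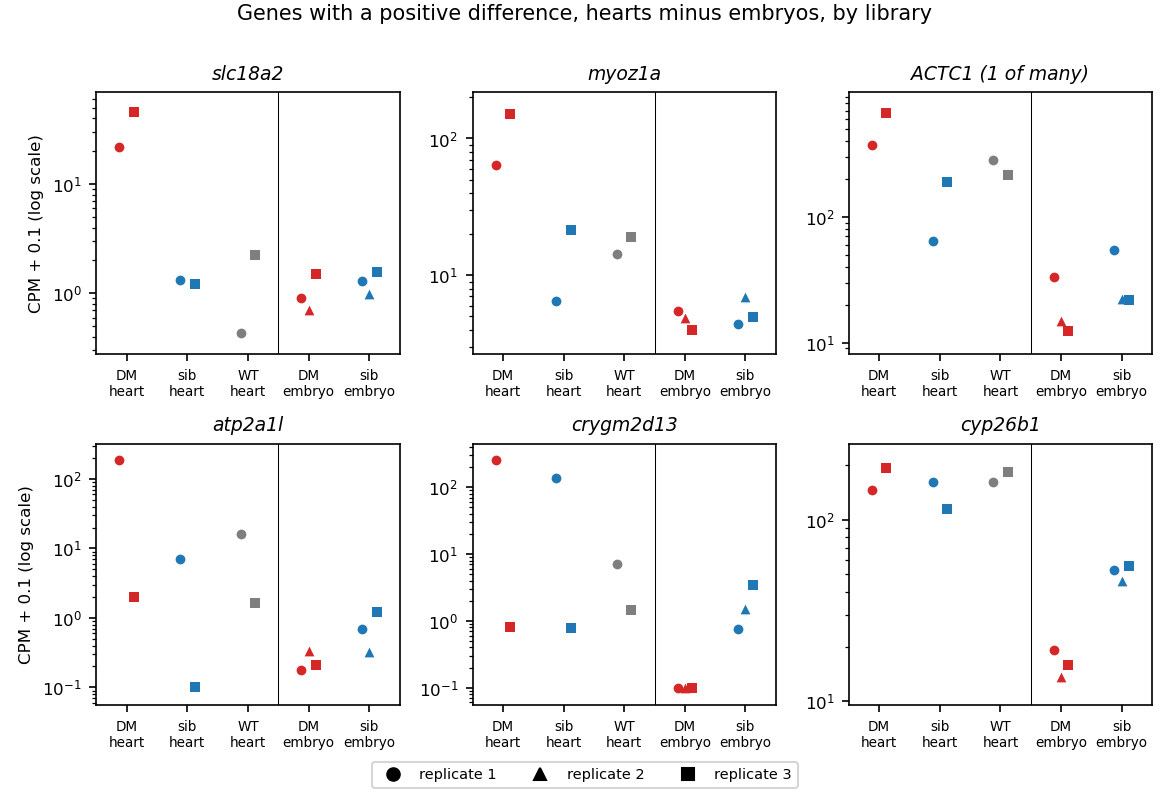
Level in each library, as CPM + 0.1 on a log scale, of 6 genes with a positive difference (hearts minus embryos), with DM, sibling and WT hearts left of the line and DM and sibling embryos right of it. For slc18a2 and myoz1a both DM hearts lie above all other hearts, for atp2a1l and crygm2d13 the libraries numbered 1 stand apart, and for cyp26b1 the separation is in embryos.

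With both tissues fitted together in edgeR, evidence for genes altered in embryos only was weaker. The retinoic acid hydroxylase gene cyp26b1 (chromosome 7, 25052585 to 25077440) was counted at 19.1, 13.4 and 15.6 CPM in DM embryos, against 52.8, 45.8 and 55.7 CPM in sibling embryos. In hearts its groups overlapped, with 145 and 191 CPM in DM hearts, 161 and 114 CPM in sibling hearts and 162 and 182 CPM in WT hearts. The log2 fold change was -1.62 (SE 0.26) in embryos and 0.25 (SE 0.30) in hearts, and the difference was 1.87 (SE 0.40, 95% interval 1.01 to 2.74). The edgeR adjusted p of that difference was 0.278 without the block and 0.0888 with it, and it ran from 0.00178 to 0.785 over the alternatives. DESeq2 called it without the block, together with crygm2d12 and crygm2d8, as embryos only. For the embryo effect of cyp26b1 itself, the joint edgeR fits gave an adjusted p of 0.762 without the block and 0.105 with it. In embryos fitted alone with the block the edgeR adjusted p was 1.32e-07, in a fit that called 9.39% of its genes lower.

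The lens gene crygm2d13 was the single gene with a positive blocked difference that was called in neither tissue. It had 0 counts in all 3 DM embryos, against 0.659, 1.41 and 3.38 CPM in sibling embryos, at least 15.4-fold lower when DM is set at 3 counts over the group. In hearts its level followed the replicate number, with 254 and 0.706 CPM in DM hearts, 139 and 0.670 CPM in sibling hearts and 6.88 and 1.36 CPM in WT hearts. Besides CR847505.1, the blocked fit called 5 genes lower in embryos, among them the crystallins crybb1l1, crybb1l2 and crygn2 and the red cell anion exchanger gene slc4a1a, none with a called difference. For slc4a1a, DM embryos held 14.4, 3.24 and 22.9 CPM and sibling embryos 45.7, 9.17 and 81.6 CPM, lower in DM in each of the 3 pairs. The levels were 209 and 209 CPM in DM hearts, 262 and 263 CPM in sibling hearts and 652 and 665 CPM in WT hearts. DM was thus the lowest heart group too, with a blocked heart effect of -0.39 that was not called (edgeR adjusted p = 0.382). Counts of near-identical crystallin copies are uncertain.

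No gene met the rule for being altered alike, which asked for a call in both tissues with the same sign and no called difference. DESeq2 with the block found 7 such genes and limma-voom with the block 10, both added after the data were seen, and 4 genes were found by both, namely tmem88a, and1, and2 and clec19a. The gene tmem88a (chromosome 10, 22613718 to 22810208), which encodes an inhibitor of Wnt signalling in the zebrafish heart field, gave 23.9 and 43.8 CPM in DM hearts, against 131 and 169 CPM in sibling hearts and 443 and 161 CPM in WT hearts. Embryos held 4.18, 2.76 and 3.11 CPM in DM and 9.64, 10.1 and 7.88 CPM in siblings. DM libraries lay below all others in both tissues. The blocked log2 fold changes were -2.26 (SE 0.27, edgeR adjusted p = 0.0104) in hearts and -1.40 (SE 0.24, edgeR adjusted p = 0.253) in embryos. Over the alternatives the adjusted p ran from 8.88e-10 to 0.245 in hearts and from 0.00208 to 1 in embryos. The difference was -0.86 with a 95% interval of -1.67 to -0.05 with the block, and -0.79 with an interval of -1.89 to 0.32 without it, so that a loss larger by 1 log2 unit in hearts was within both intervals.

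Actinodin genes encode the fibre proteins of the larval fin fold. The first, and1 (chromosome 24, 26134462 to 26138318), gave 13.1 and 3.297 CPM in DM hearts, against 427 and 38.2 CPM in sibling hearts and 34.2 and 88.7 CPM in WT hearts. Embryos held 1.77, 1.44 and 1.71 CPM in DM and 13.2, 5.92 and 16.1 CPM in siblings. DM was the lower group in both tissues without overlap. The blocked fold changes were -4.55 in hearts (SE 0.43) and -2.71 in embryos (SE 0.35), and the interval of their difference, -3.09 to -0.61, left out 0 although the difference was not called (edgeR adjusted p = 0.224). The heart adjusted p ran from 6.09e-17 to 0.651 and the embryo adjusted p from 2.21e-07 to 1 over the alternatives.

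For and2 the levels were 75.6 and 30.1 CPM in DM hearts, against 697 and 63.4 CPM in sibling hearts and 165 and 159 CPM in WT hearts, and 0.241, 0.360 and 1.07 CPM in DM embryos, against 4.13, 1.26 and 5.74 CPM in sibling embryos. Here the heart groups overlapped, as DM heart 1 was above sibling heart 3. The blocked difference was 0.47 with an interval of -1.38 to 2.31. The third actinodin, and3, had 2 counts in all DM embryos and 43 in sibling embryos, a sibling level 16.6 times the DM level (95% counting interval 4.31 to 141), and 4.96 and 0.471 CPM in DM hearts, against 83.6 and 21.4 CPM in sibling hearts and 6.04 and 45.2 CPM in WT hearts.

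Other genes also had effects of the same sign in both tissues, positive ones for clec19a and ENSDARG00000093877 and negative ones for sfrp1a. The C-type lectin gene clec19a (chromosome 3, 31030449 to 31059886) gave 434 and 535 CPM in DM hearts, against 113 and 165 CPM in sibling hearts and 254 and 82.5 CPM in WT hearts, and 35.9, 57.2 and 75.02 CPM in DM embryos, against 20.3, 36.3 and 32.6 CPM in sibling embryos. The heart groups did not overlap, and the embryo groups overlapped at their edges, with DM higher in each pair. Its blocked effects were 1.76 in hearts (SE 0.24, edgeR adjusted p = 0.0197) and 0.95 in embryos (SE 0.20, edgeR adjusted p = 0.372), with a difference of 0.81 and an interval of 0.10 to 1.51. Adjusted p over the alternatives ran from 4.20e-08 to 1.00 in hearts and from 0.00315 to 1 in embryos. For the MFAP4 family member ENSDARG00000093877 the effects without the block were 1.85 in hearts and 1.76 in embryos, neither called, with a difference of 0.09 (95% interval -1.41 to 1.60). The Wnt antagonist gene sfrp1a had an effect of -2.37 in hearts (SE 0.40, edgeR adjusted p = 0.0333, from 6.18e-05 to 0.925 over the alternatives) and -1.31 in embryos (SE 0.28, edgeR adjusted p = 0.391) with the block, and of -1.25 in embryos without it (edgeR adjusted p = 0.938).

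**Figure D4:**
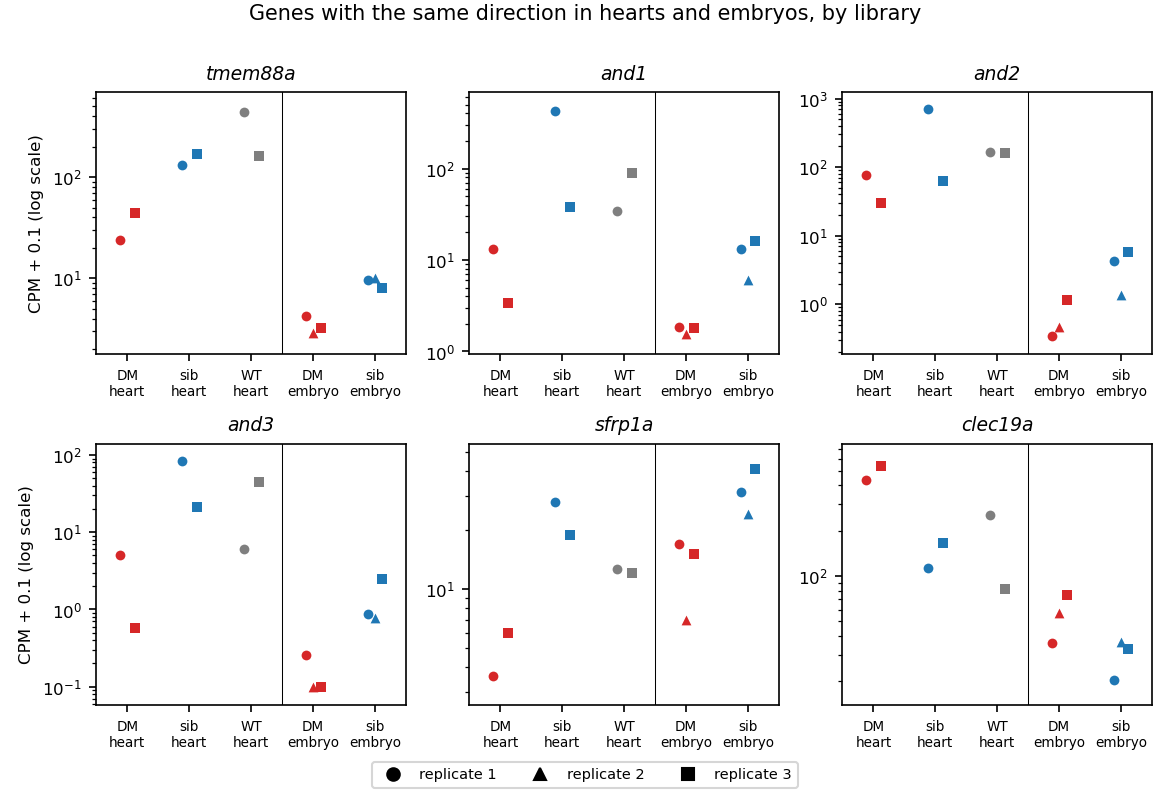
Level in each library, as CPM + 0.1 on a log scale, of 6 genes whose effect had the same sign in hearts and embryos, with DM, sibling and WT hearts left of the line and DM and sibling embryos right of it. DM libraries are the lower ones in both tissues for tmem88a, and1, and3 and sfrp1a and the higher ones for clec19a, apart from an overlap of 1 DM and 1 sibling embryo for clec19a. For and2, DM heart 1 overlaps with sibling heart 3.

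The sharing of effects between the tissues was also described over all genes. Across the 19689 genes, which are not independent replicates, the heart and embryo fold changes had a correlation of 0.0800 without the block and 0.0737 with it. The 161 genes lower in DM hearts had a median embryo fold change of -0.09, with 99 of them negative (61.5%, beside 49.3% of all tested genes), and the 74 genes higher in DM hearts had a median of 0.10. In embryos fitted alone with the block, 1674 of 17831 genes were called lower (9.39%) and 779 higher (4.37%) in DM. The 1674 had a median heart fold change of -0.17 with 65.1% of them negative (49.0% of all tested genes). In hearts 21 of them were called lower and 5 higher, beside 0.818% and 0.376% of all tested genes. Of the genes higher in embryos, 778 were in the joint fit, with a median heart fold change of 0.11 and 43.6% negative. Among these, 9 were called lower and 7 higher in hearts. The blocked difference was called for 4 of the 1674 and 8 of the 778, beside 48 of all 19689 tested genes (0.193% negative and 0.0508% positive). Hearts only thus means no call in embryos by the joint fit. For 217 of the 1674 (13.0%) the 95% interval of the difference lay within 1 log2 unit of 0, beside 3051 of all tested genes (15.5%). DM was the lower library in each of the 5 pairs for 1598 genes (8.12%) and the higher in each for 1266 (6.43%).

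Gene lists for tissues and pathways were described by their medians and counts with the block. Over all tested genes the blocked fit called 0.818% lower and 0.376% higher in hearts and 0.0305% lower in embryos. A negative difference was found for 46.4% of all tested genes. The list with the most positive median difference was skeletal muscle (42 tested), at 1.53 with the block, with a median of 1.09 in hearts and 0.09 in embryos and 5 members called higher in hearts. Erythroid genes (32 tested) had a median of 0.76 in hearts and -0.07 in embryos, with 3 members higher in hearts, the ammonium transporter gene rhag and the embryonic globin genes hbbe3 and hbbe2, and 1 member (slc4a1a) lower in embryos. The 4 erythrocyte markers found took 0.0950% to 0.104% of counts in DM hearts and 0.0640% to 0.0741% in sibling hearts. In WT hearts they took 0.176% to 0.185%, so DM hearts lay above sibling hearts but below WT hearts. Lens genes (27 tested) were lower in both tissues, with medians of -1.05 in hearts and -2.28 in embryos, but the heart median was -1.15 in the pair numbered 1 and 0 in the pair numbered 3. Cardiomyocyte genes (31 tested) had a median of 0.72 in hearts and 0.20 in embryos, with ldb3b, desmb and fhl2a called higher in hearts. Their heart median was 1.19 in the pair numbered 1 and 0.41 in the pair numbered 3. The cardiomyocyte markers given above were lowest in sibling heart 1 (1.26% of counts, against 3.02% in sibling heart 3). WT hearts (2.83% to 4.33%) overlapped with DM hearts (3.47% to 4.63%). Collagens (29 tested) had medians of -0.52 in hearts and -0.32 in embryos, and col12a1a, col6a1, col6a2 and col5a1 were called lower in hearts. The 13 mitochondrially encoded genes had medians of -0.66 in hearts and 0.33 in embryos with 0 called in either, and all 13 had a negative difference.

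**Figure D5:**
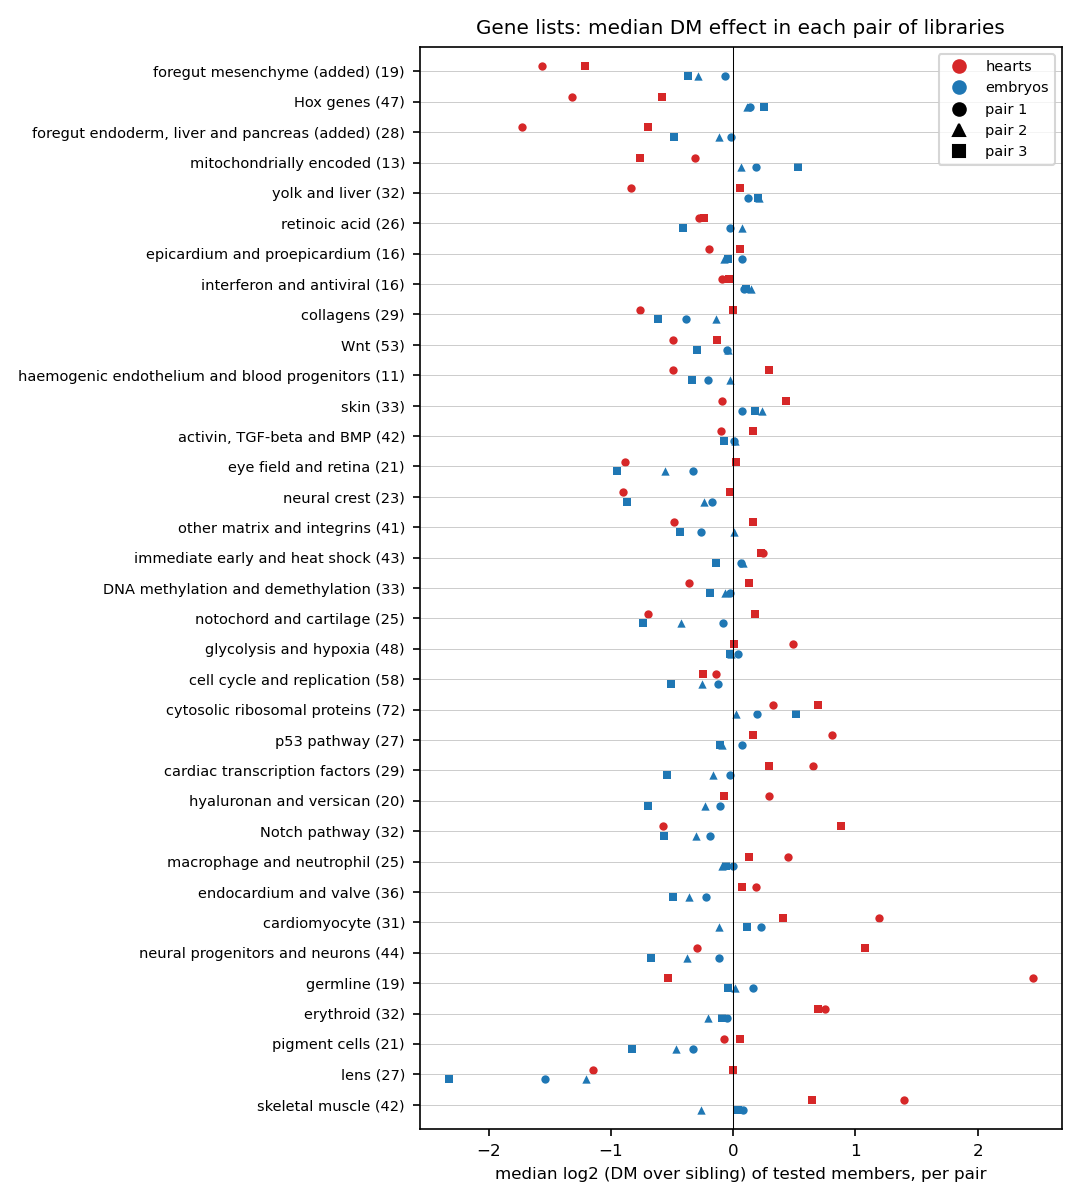
Median log2 ratio of DM over sibling for the tested members of each gene list (number in brackets), in each pair of equally numbered libraries, with hearts in red and embryos in blue and lists ordered by their median difference. Foregut mesenchyme, Hox and foregut endoderm genes lie to the left in both heart pairs. In the embryo pairs the Hox medians run from 0.11 to 0.26, those of foregut mesenchyme from -0.37 to -0.065 and those of foregut endoderm from -0.49 to -0.019, and skeletal muscle genes lie to the right in both heart pairs.

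The authors' own tables, made within each tissue, called few genes in either. In the authors' deposited table for hearts 103 genes have an adjusted p under 0.05, 77 lower and 26 higher in DM, and in the authors' deposited table for embryos 47, 36 lower and 11 higher. Of these, 2 genes are in both, and both are lower in DM. The embryo calls are 47 of 25680 genes, so with lists this short a count of 2 does not show little sharing. The authors' deposited tables give tmem88a a log2 fold change of -1.65 in hearts (adjusted p = 0.0141) and -1.12 in embryos (adjusted p = 0.00195), and and1 -1.78 in hearts (adjusted p = 0.0340) and -1.78 in embryos (adjusted p = 3.38e-07).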

How the data were processed

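Counts per gene of 25680 genes were taken from the authors' deposited tables and joined by gene ID (0 columns of other samples left unused). The authors deposited, per the file headers, log2 fold changes and p-values per comparison, quoted where named. STAR 2.3.0e, HTSeq 0.6.0 and GRCz10 are named in the submitters' processing notes without their role, and strand handling is not given in the sources used here. Coordinates are those of the deposited tables.

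Counts of 10 libraries were filtered with filterByExpr, scaled by TMM and fitted with 4 group means in edgeR 4.0.16 (R 4.3.3, quasi-likelihood test, 6 residual degrees of freedom, adjusted p threshold 0.05). The contrast was DM minus sibling in hearts minus DM minus sibling in embryos. A second fit added the replicate number within each tissue as 5 blocks (3 residual degrees of freedom). Deviations from group means correlated between equally numbered libraries by 0.803, 0.617 and 0.248 in embryos and 0.279 in hearts, above the minimum of 0.1, but DM embryo 3 correlated by 0.446 with sibling embryo 2. The labels state no pairing, and with 2 heart pairs the check is a hint only. SE is the fold change over the root of F. CPM values are counts over the library total. In pair ratios 0.5 CPM was added.

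The members and lists were chosen with earlier results of these data known. Named were tet1 to tet3, up to 5 genes per class and direction (mean CPM of at least 5, groups apart, a proper symbol), 5 by DESeq2 and 2 per list. A further 30 symbols, 2 lists and 4 alternatives were added after values were seen. Alternatives included DESeq2 1.42.0 and limma 3.58.1 (voom), and scripts were tested on simulated data. The 33 lists hold 1171 genes, 1067 of them tested.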

Additional observations from a re-analysis of the deposited data

Results flagged for a closer look

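Each gene below had a DM effect in hearts that differed from its effect in embryos by the edgeR test of the difference itself. Values are differences of log2 fold changes, hearts minus embryos, with adjusted p under 0.05. Without the block the called genes were nkx3.3 (-7.42), barx1 (-5.07), foxf2a (-4.88), hoxb8a (-4.55), foxf1 (-4.47), inhbaa (-4.05), AEBP1 (1 of many) (-3.64), hoxc1a (-2.86) and cxcl12b (-2.80).

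With the replicate block, further genes with a negative difference were hkdc1 (-4.18), arsj (-4.17), bin2a (-4.05), ENSDARG00000038709 (-4.19), mxra5a (-3.96), hoxb8b (-3.85), cldnc (-3.63), slc7a11 (-3.62), BNC1 (-3.26), jam2b (-3.24), foxa3 (-2.88), fermt1 (-2.87), rdh10a (-2.83), ntd5 (-2.82), prdm1a (-2.71), emp2 (-2.31) and erbb3a (-2.28). The values for gcgb (-6.68) and ackr3a (-8.86) rest on 3 and 0 counts in DM hearts and are no bounds. A positive difference with the block was found for atp2a1l (6.70), slc18a2 (5.09), klhl43 (3.26), myoz1a (3.09), ENSDARG00000057911 (2.75), acta1a (2.17), atp1a2a (2.14) and klhl31 (1.90). The value for crygm2d13 (7.53) rests on 0 counts in DM embryos and is no bound either.

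Leaving out 1 library moved 11 of these 37 differences by over 1.5 times in the fit without the block. Without DM heart 1 the difference was -9.75 for slc7a11, -7.77 for bin2a, -4.35 for ntd5, -5.47 for cldnc, -11.22 for nkx3.3, 1.27 for atp2a1l and 0.44 for crygm2d13. Without sibling heart 1 it was -0.20 for slc7a11, -1.97 for bin2a, -0.90 for ntd5, -3.80 for gcgb, 14.53 for atp2a1l and 14.30 for crygm2d13. Without DM heart 3 it was 1.12 for acta1a, and without sibling embryo 1 it was 1.51 for acta1a, 1.33 for atp1a2a and 0.995 for klhl31.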

How the results depend on the processing

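Given in the order difference, hearts, hearts only, the counts of called genes were 90, 282 and 85 with DESeq2 (7 in embryos, 3 embryos only), 0, 0 and 0 with limma-voom and tissue quality weights (554 and 714 at an unadjusted p under 0.05 for the difference and hearts), 14, 56 and 14 with no filter, 17, 45 and 17 with at least 1 CPM in both tissues, 15, 47 and 15 with the span trend removed, and 1, 224 and 1 with WT hearts in place of siblings. DESeq2 size factors gave 17 for the difference and 17 in hearts only. The replicate block gave 48, 235 and 46 (6 in embryos, 1 embryos only), 31, 236 and 30 with the span trend removed too (4 in embryos), and 0, 19 and 0 as a block in embryos alone (1496 at an unadjusted p under 0.05 for the difference). Added after the data were seen, DESeq2 with the block gave 353, 683 and 279 (51 in embryos, 12 embryos only, 7 alike), and limma-voom with the block 59, 103 and 38 (1627 in embryos, 11 embryos only, 10 alike). For tissues fitted alone, the DM effect in hearts was called for 0 genes with or without the block, and the DM effect in embryos for 2453 with it. Leaving out 1 library gave 0 to 41 for the difference, 0 to 41 in hearts only and 20 to 253 in hearts. The cause of these shifts was not tested. Without both hearts numbered 1, which held lens counts, 6 genes were called for the difference (barx1, her12, hoxb8a, hoxb9a, hoxc8a and rspo2).

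Among single genes 12 values changed sign. With each library left out in turn the difference ran from -1.70 to 9.31 for crybb1l1, from -2.64 to 7.10 for crybb1l2 and from -3.08 to 8.64 for crygn2, the lowest without DM heart 1 and the highest without sibling heart 1. Heart effects ran from -10.22 to 1.22 for gja8b (without DM heart 1 or sibling heart 1), from -1.73 to 0.10 for aep1 (without DM heart 3 or sibling heart 3) and from -0.084 to 0.62 for tet3 (without sibling heart 3 or sibling heart 1), and the embryo effect of tet2 from -0.050 to 0.31 (without DM embryo 1 or 3). With WT hearts the difference was -0.37 for slc4a1a, and heart effects were 0.33 for gja8b, 2.22 for aep1 and -0.10 for tet3. Without both hearts numbered 1 tet1 stood at 0.11 in hearts. The other gene values kept their direction, 1756 on the same side of the threshold, 268 newly past it and 95 no longer past it.

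With 2 hearts a group and lower totals than in embryos, small differences were not detectable, and low counts in hearts limit genes such as gcgb and ackr3a.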
